A study of Zea mays with 10 samples.

Results

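The outer 5 Mb of every maize chromosome were examined for small RNA in leaf and root. The windows were chosen by position alone, as the 100 kb windows starting below 5 Mb and those within the last 5 Mb up to the highest position with reads on each chromosome. This gave 1000 of the 20589 windows of the 10 chromosomes, in 20 ends of 50 windows. An end is named here by chromosome and arm, so that 10L is the long-arm end of chromosome 10 and 10S its short-arm end. Low coordinates were taken as the short arm, which is the convention of maize chromosome maps. The sources used here do not give the genome build of the windows, and the files hold no gene names, so a window is identified by its chromosome and start, and what genes or repeats it holds is not analysed here.

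Plant small RNAs include microRNAs, which are cut from hairpin transcripts and silence messenger RNAs, and small interfering RNAs, most of which arise from transposons and other repeats. Many of the interfering RNAs guide DNA methylation to the sequence that they match. Maize chromosome arms are richer in genes toward their tips, and small interfering RNAs of maize are known to concentrate near genes. The tips themselves are made of telomere repeats and of subtelomeric repeats, and the short arm of chromosome 6 carries the nucleolus organiser, where ribosomal RNA genes lie.

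The study asked how altered copy number changes small RNA. It has 10 libraries of seedlings 14 days old, with 1 library per line in each tissue. The leaf was sequenced in 6 lines, namely the inbred B73 and 5 others. Line id1 has the genotype P1-wwid1 and id4 has P1-wwid4. The genotype of 9d9a is P1-vv9d9a and that of 714 is P1-ww714, while 714H is P1-ww714/B73, with 1 copy of the 714 allele beside that of B73. The root was sequenced in B73, id1, id4 and 9d9a. The lines other than B73 are named for alleles of p1, a gene of chromosome 1 for a Myb factor that controls red pigment. Leaf and root are named in the titles, the leaf samples carry the tissue label seedling, and without gene names the tissue could not be checked against marker genes. Levels are in CPM, the reads of a window scaled to the total of its library. Totals ranged from 8472011 to 18396214 reads, and the median end window held 473 to 1026 reads, a counting error (SE) of 4.6% to 3.12%. The labels give no batch.

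The chromosome ends were rich in small RNA in every library. They made up 4.86% of the windows and held 8.91% ± 0.126 of the reads in leaf (SD, n = 6) and 8.67% ± 0.304 in root (SD, n = 4). The lowest shares were 8.41% in B73 root and 8.41% in id1 root, below the 8.94% of id4 root and the 8.92% of 9d9a root, while the leaf libraries lay between 8.77% and 9.10%. The leaf and root values overlapped. The mean end window was 1.92 ± 0.0299 times as high as the mean of all other windows in leaf and 1.86 ± 0.0713 times in root. The median end window was at 55.4 ± 1.20 CPM in leaf and 56.3 ± 1.55 CPM in root, against 26.1 ± 0.434 and 26.0 ± 0.758 CPM in the other windows.

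This elevation was not a property of the last 5 Mb alone. The median window of the next 5 Mb inward was at 57.5 ± 1.41 CPM in leaf and 58.9 ± 1.75 CPM in root. The ratio of the ends to this neighbouring stretch was 0.926 to 0.984 by the median window, so that the ends lay slightly lower in all 10 libraries. By the mean window it was 1.001 to 1.17.

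Most ends shared the high level. At 18 of 20 ends the median window was above that of all other windows in every library. The exceptions were 6S, where it held 17.9 to 20.9 CPM and lay below in all 10 libraries, and 2L, which lay below in id1 leaf and id1 root and above in the other 8. When the genome was divided into 418 blocks, the 20 ends and 398 interior blocks of up to 5 Mb, 17 ends were among the highest 104 by their median window. The highest by that measure were 5S in place 9, 10L in place 10 and 8L in place 11, and 6S stood in place 299.

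Small RNA fell off sharply toward the tips. In the outermost 1 Mb of both arms the median window held 24.4 to 28.0 CPM over the 10 libraries, close to the level of the windows outside the ends. From 1 to 2 Mb it held 54.8 to 60.8 CPM, from 2 to 3 Mb 57.7 to 63.4 CPM, from 3 to 4 Mb 63.2 to 69.3 CPM and from 4 to 5 Mb 68.0 to 76.5 CPM. The lowest step was the outermost and the highest the innermost. Just outside the 5 Mb limit, from 5 to 6 Mb, the median was 60.9 to 70.9 CPM, and from 9 to 10 Mb it was 42.8 to 52.3 CPM. On the long arms most of the rise came with the second step, which held 63.0 to 73.8 CPM after 23.4 to 25.8 CPM in the first. On the short arms it was slower, with 25.3 to 29.9 CPM in the first step, 43.4 to 49.9 CPM in the second and 67.9 to 76.5 CPM in the last.

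**Figure D1:**
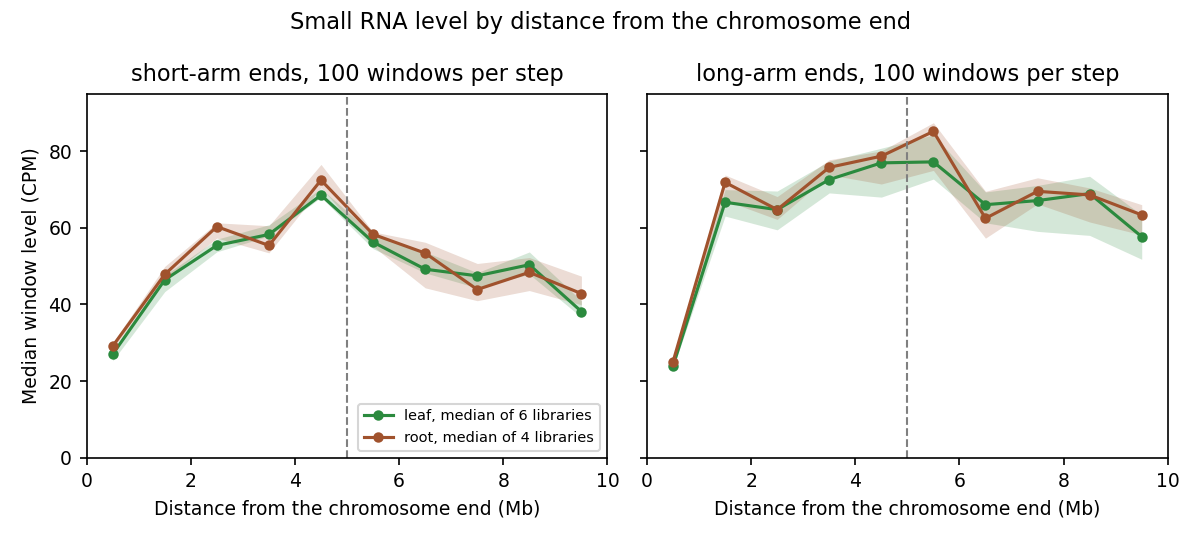
Median level of the 100 kb windows (CPM) in steps of 1 Mb from the chromosome end, for the 10 short-arm ends (left) and the 10 long-arm ends (right), with lines for the median over libraries (6 of leaf, 4 of root), bands from the lowest to the highest library and a dashed line at 5 Mb. Both tissues show the low outermost step and the slower rise on the short arms.

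The drop at the tip was shared by most ends but not by all. At 16 ends, 7 short and 9 long, the median of the outermost 1 Mb was below that of the remaining 4 Mb in all 10 libraries. The lowest outermost steps were those of 3S, with a mean over the libraries of 6.29 CPM against 69.1 CPM in the inner 4 Mb, of 10S (7.25 against 54.7), of 9L (10.4 against 78.5) and of 9S (11.99 against 38.5). At 2 ends the order was reversed in all 10 libraries. The outermost step of 8S held 70.5 CPM against 55.2 CPM farther in, and that of 6S held 28.6 CPM against 17.9 CPM. At 1S the outer step was the lower one in 8 of 10 libraries, and at 3L in 9.

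The last windows themselves ranged from nearly empty to well above the median end window. The last window of 9L, starting at 156.7 Mb, held 0 to 3 reads per library and 13 in all. The first window of 6S held 5 to 15 reads per library, a mean of 0.746 CPM, and that of 10S held 2 to 20 reads, a mean of 0.906 CPM. At the other extreme the first window of 5S held 106 to 134 CPM, that of 1S 79.3 to 120.5 CPM and that of 8S 59.7 to 93.3 CPM. The last window of a chromosome may be shorter than 100 kb, which lowers its count. All 1000 end windows had reads in some library and 997 had reads in every library. Of the 19589 windows outside the ends 5 had none, too few to set the ends apart. The last window of each chromosome has reads by the rule. There were 7 end windows under 1 CPM in every library, 6 of them short-arm, which is 0.7% of the end windows against 0.597% of all windows.

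The 20 ends differed widely in level. Summed over its 50 windows, 10L held the most, with 8405 CPM as the mean of 10 libraries, and it ranked 2 of the 418 blocks by its mean window. It was followed by 1L (6253 CPM), 8L (5964), 6L (5504), 3L (5343) and 9L (5123). The lowest were 6S (1819 CPM), 1S (2662), 9S (2923) and 2L (2937). The 6 highest ends were all long-arm ends, and the highest short-arm ends were 2S (5050 CPM) and 5S (5007 CPM). Some ends were nearly the same in all libraries. At 7L the highest library was 1.05 times the lowest, at 8L 1.05 times and at 5L 1.06 times, whereas the factor was 1.498 at 10L, 1.43 at 10S and 1.42 at 1L.

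**Figure D2:**
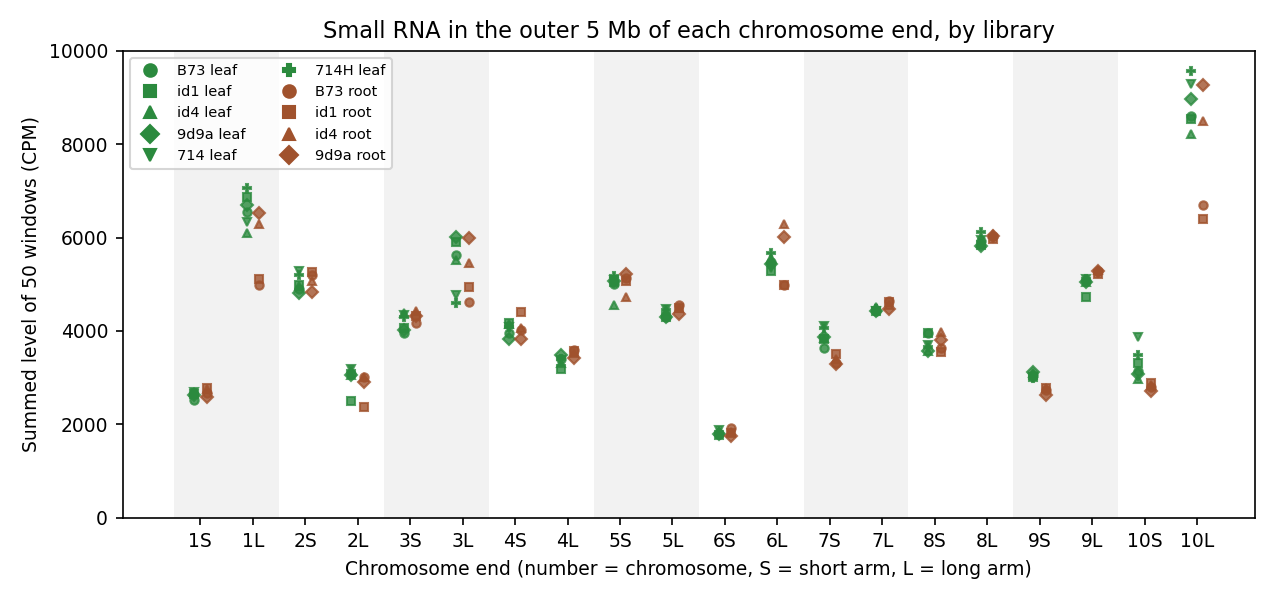
Summed level of the 50 windows of each chromosome end (CPM), 1 point per library, with leaf in green, root in brown and a symbol for each line. The long-arm ends of chromosomes 10 and 1 spread widely between libraries, with B73 and id1 root lowest, while 7L, 5L and 8L hardly vary.

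Long-arm ends held more small RNA than short-arm ends. The mean long-arm window was 1.43 ± 0.0404 times the mean short-arm window in leaf (SD, n = 6) and 1.43 ± 0.113 times in root (SD, n = 4), with a range of 1.31 to 1.55 over all libraries. By the median window the factor was 1.08 to 1.19. Farther inward the long arms were higher too, so this order was not particular to the ends. From 5 to 6 Mb the median window held 72.7 to 87.4 CPM on long arms and 54.5 to 58.9 CPM on short arms. From 9 to 10 Mb it held 51.8 to 66.0 CPM against 36.7 to 47.4 CPM. Chromosome by chromosome, the long-arm end had the larger sum in all 10 libraries on chromosomes 1, 3, 6, 7, 8, 9 and 10, with mean ratios from 1.23 on chromosome 7 to 3.03 on chromosome 6. The short-arm end had the larger sum in all 10 libraries on chromosomes 2, 4 and 5, where long over short was 0.582, 0.847 and 0.884. The order on chromosome 3 rested on 1 window. There the ratio of sums was 1.27, but it was 0.900 by the median window, with the short arm higher in all 10 libraries, and 0.929 without the most read window of each end, with the long arm higher in 1 library. On chromosome 5 the long arm was also higher in 1 library once those windows were left out (mean ratio 0.885).

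Single windows carried much of the signal at several ends. At 8 ends the most read window held over 10% of the end's reads as a mean of libraries. The number of interior blocks past that mark is not given here, so this is not shown to be particular to the ends. The window from 299.6 to 299.7 Mb held 32.6% to 51.8% of the reads of 1L. The window from 145.6 to 145.7 Mb held 25.2% to 44.8% of 10L, that from 229.9 to 230.0 Mb 26.6% to 42.5% of 3L and that from 166.8 to 166.9 Mb 21.4% to 40.6% of 6L. On the short arms the window from 3.1 to 3.2 Mb held 9.49% to 39.8% of 10S and that from 4.7 to 4.8 Mb 6.52% to 23.2% of 8S. The 5 most read end windows, which are those of 10L, 1L, 3L, 6L and 9L, together held 7.89% to 14.2% of all end reads. Of the 206 windows in the most read 1% of the genome, 33 lay at the ends, 14 on short and 19 on long arms.

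Several of these windows were low in the same pair of root libraries. On chromosome 10 the window from 145.6 Mb had 3561 CPM in B73 leaf, 3823 in id1 leaf, 3029 in id4 leaf, 3656 in 9d9a leaf, 3923 in 714 and 4209 in 714H. In root it held 1685 CPM in B73 and 1630 in id1, but 3116 in id4 and 4053 in 9d9a. B73 and id1 root were thus the low libraries, and the id4 and 9d9a roots lay within or next to the leaf range. On chromosome 1 the window from 299.6 Mb had the same order, with 2852 to 3587 CPM in the 6 leaf libraries, 1723 in B73 root, 1665 in id1 root, 3034 in id4 root and 3093 in 9d9a root. At 229.9 Mb of chromosome 3 the leaf libraries held 1710 to 2508 CPM and the roots 1231 in B73, 1400 in id1, 1844 in id4 and 2275 in 9d9a. At 166.8 Mb of chromosome 6 the leaf libraries held 1437 to 1780 CPM, B73 and id1 root 1065 and 1161, and id4 and 9d9a root 2554 and 2430, which is above every leaf library.

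The order recurred on both arms of chromosome 8. From 4.7 Mb there were 237 CPM in B73 root and 275 in id1 root, against 708 in id4 root, 618 in 9d9a root and 507 to 918 in leaf. From 172.1 Mb there were 268 and 279 CPM in B73 and id1 root, against 513 and 517 in the other roots and 317 to 470 in leaf. In all, B73 and id1 root were the lowest of the 10 libraries in the most read window of 7 of the 20 ends, the last of which was 9S, where all 4 roots were low. How often B73 and id1 root were the lowest in the interior blocks is not given here. The order is therefore not shown to be particular to the ends. These windows of the ends were picked out after their values were seen. The spread between libraries at some ends was smaller without these windows. Then the highest library was 1.14 times the lowest at 10L instead of 1.498, 1.10 at 1L instead of 1.42 and 1.09 at 6L instead of 1.26, while at 3L the factor stayed at 1.31. None of the 5 most read windows but that of 9L passed the test of leaf against root given next, with log2 differences of 0.39 ± 0.31 (SE) at 10L and 0.42 ± 0.23 at 1L. With 1 library per line and tissue, a line's own level and a difference between single libraries cannot be told apart.

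**Figure D3:**
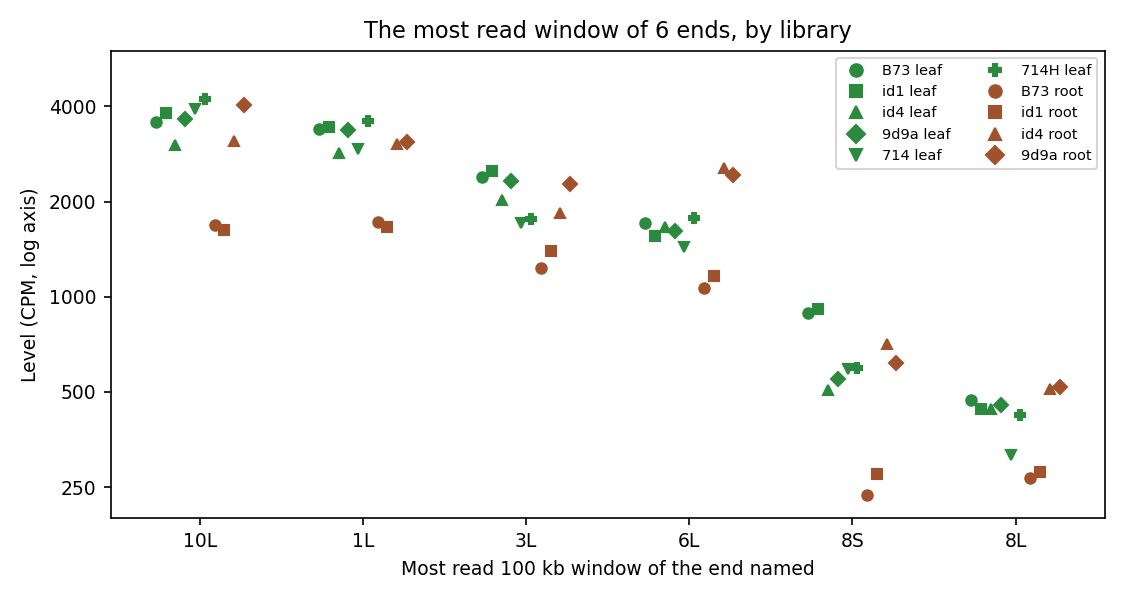
Level (CPM, log axis) of the most read window of 6 ends in each library, with leaf in green, root in brown and a symbol for each line. In every one of the 6 windows B73 and id1 root lie below all other libraries.

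The comparison of leaf and root used the 4 lines with both tissues (8 libraries), which served as replicates. As the labels name no separate plants, p-values cover only the spread among these libraries. That spread includes differences between the 4 lines, as line was not in the main fit, and part of it may be technical. In whole tissue, fewer cells of a type and less RNA per cell cannot be told apart. Of 991 end windows tested, 114 were higher in leaf and 183 in root at an adjusted p under 0.05 (edgeR's quasi-likelihood test, adjusted over all 20215 windows tested). These are 11.5% and 18.5% of the end windows, against a background over all windows of 11.3% and 13.9%. The median log2 of leaf over root was -0.03 over the end windows and 0.02 over all windows. Most differences were small, with a median log2 of 0.44 among the windows called higher in leaf and -0.44 among those called higher in root, and 7 and 8 of them differed over 2-fold. Both arms contributed, with 64 windows higher in leaf and 95 in root on the short arms and 50 and 88 on the long arms. With line as a replicate block the counts were 180 higher in leaf and 246 in root. The background of that fit is not given here, so these counts cannot be set against the 11.3% and 13.9%. The count higher in leaf was lower with any line left out, which also leaves fewer libraries in the fit. It was 55 when B73 was left out, 72 when id1 was, 76 when id4 was and 66 when 9d9a was.

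All the windows named as higher in leaf lay on short arms, although 50 of the 114 windows called lay on long arms. From 3.0 to 3.1 Mb of chromosome 9 the leaf libraries held 492.9 CPM in B73, 409 in id1, 403 in id4 and 502 in 9d9a, and the roots 49.1, 66.7, 155 and 108 in the same order. The log2 difference was 2.22 ± 0.38 (SE, adjusted p = 0.00702 in edgeR). Without both libraries of 9d9a it was 2.26 with an adjusted p of 0.0554. At 4.3 to 4.4 Mb of chromosome 7 the leaf level was 465 ± 76.4 CPM and the root level 103 ± 22.2 CPM (SD, n = 4), a log2 difference of 2.15 ± 0.17 with an adjusted p of 6.9e-05 in edgeR. At 1.2 to 1.3 Mb of chromosome 7 leaf held 477 ± 49.7 CPM and root 174 ± 17.8 CPM (1.44 ± 0.09, adjusted p = 7.59e-06 in edgeR), and this is the most read window of 7S.

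The most read window of 10S followed the tissue too. At 3.1 to 3.2 Mb of chromosome 10 the roots were close together, with 272, 302, 270 and 281 CPM in B73, id1, id4 and 9d9a, while the leaf libraries ranged from 591 CPM in id4 over 740 in 9d9a, 821 in B73 and 1012 in id1 to 1175 in 714H and 1543 in 714. Every leaf library lay above every root library (log2 1.47 ± 0.15, adjusted p = 0.000141 in edgeR). At 1.5 to 1.6 Mb of chromosome 4 the levels were lower, 68.5 ± 8.78 CPM in leaf and 26.7 ± 4.05 CPM in root (1.34 ± 0.12, adjusted p = 6.87e-05 in edgeR).

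The windows named as higher in root reached lower levels, and 4 of the 5 lay on long arms. Of all windows called higher in root, 95 lay on short arms and 88 on long arms, so this split holds for the named windows only. At 216.1 to 216.2 Mb of chromosome 5 the roots held 163 CPM in B73, 117 in id1, 77.6 in id4 and 112 in 9d9a, and the leaf libraries of the same lines 32.2, 41.5, 31.4 and 34.1 (log2 of leaf over root -1.78 ± 0.22, adjusted p = 0.000993 in edgeR). At 300.5 to 300.6 Mb of chromosome 1 root held 37.1 ± 5.38 CPM and leaf 11.5 ± 0.830 CPM (-1.71 ± 0.11). Chromosome 10 had a pair of such windows within 5 Mb of its end. At 146.5 to 146.6 Mb root held 141 ± 10.5 CPM and leaf 58.5 ± 2.97 CPM (-1.29 ± 0.08), and at 149.5 to 149.6 Mb root held 152 ± 8.76 CPM and leaf 68.6 ± 5.92 CPM (-1.17 ± 0.08). The only short-arm window among the 5 was at 2.2 to 2.3 Mb of chromosome 6, with 19.7 ± 2.14 CPM in root and 8.69 ± 0.450 CPM in leaf (-1.20 ± 0.11). In all of them the leaf and root libraries did not overlap, the 714 and 714H leaf libraries included. The named windows of both directions were picked for large changes in these data, so such a lack of overlap is no separate support. Its share over all windows is not given here.

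Summed over 5 Mb, 3 of 20 ends differed between leaf and root, and all were short-arm ends higher in leaf. The background over the 418 blocks was 14.1% for leaf and 13.2% for root. At 7S leaf held 3626, 3829, 3843 and 3881 CPM in B73, id1, id4 and 9d9a, and root 3321, 3518, 3398 and 3285 CPM (log2 0.18 ± 0.03 SE, adjusted p = 0.00228 in edgeR). At 9S leaf held 3077 ± 45.8 CPM and root 2736 ± 67.8 CPM (0.18 ± 0.02, adjusted p = 0.000454 in edgeR). At 10S leaf held 3130 ± 144 CPM and root 2808 ± 75.3 CPM (0.17 ± 0.03, adjusted p = 0.0105 in edgeR). The leaf and root libraries of the 4 lines did not overlap at 5 ends, these 3 and, with root higher, 8L and 9L, while 26.3% of the 418 blocks did not overlap. No end was called higher in root by edgeR or by DESeq2, and 3 ends had an unadjusted p under 0.05 in either direction. With line as a replicate block 2L was called higher in leaf as well (adjusted p = 0.0376 in edgeR).

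None of the 3 calls higher in leaf held without the most read window of its end. When that window was left out of every end, the log2 difference was 0.06 at 7S (adjusted p = 0.0940), 0.01 at 9S (0.824) and -0.09 at 10S (0.00878), so that 10S turned to higher in root (edgeR's quasi-likelihood test throughout). Then 8S was also higher in root (-0.09 ± 0.02, adjusted p = 0.0102), where it had been at 0.02 ± 0.06, and no end was higher in leaf. The call at 10S was also lost without B73 (adjusted p = 0.0601) and without 9d9a (0.0516). Leaving the window out was chosen after seeing the data. At 7S the window from 4.3 Mb also held far more in leaf, 465 CPM against 103 in root. Its weight in that call was not tested. The calls also depended on the width of the end. With ends of 2 Mb, 9S was at 0.01 (adjusted p = 0.800 in edgeR) and 10S was higher in root (-0.13, adjusted p = 0.0208 in edgeR), while 7S stayed higher in leaf (0.32). With ends of 10 Mb, 7S was at 0.05 (adjusted p = 0.106 in edgeR) and 10S at 0.03 (adjusted p = 0.359 in edgeR), while 9S stayed higher in leaf (0.09).

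**Figure D4:**
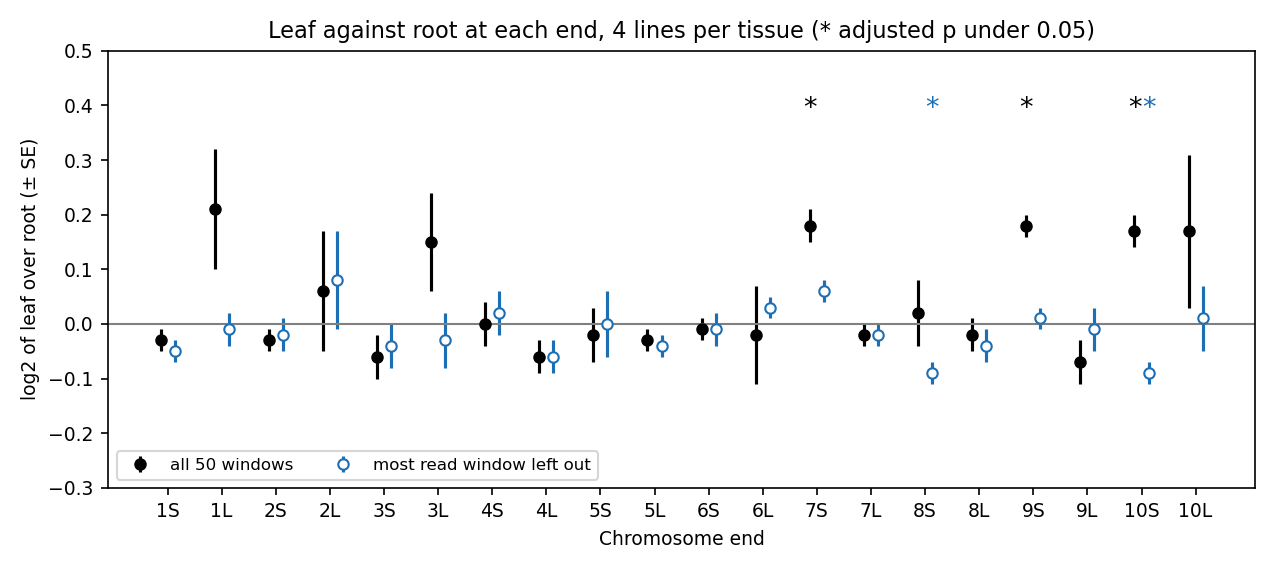
Difference between leaf and root at each chromosome end as log2 of leaf over root, with SE bars from edgeR on 4 lines per tissue, for all 50 windows (black) and with the most read window left out (blue, open), where stars mark an adjusted p under 0.05 over 418 blocks. The 3 short-arm ends called higher in leaf in black are not so called in blue, where 8S and 10S are at -0.09 and called higher in root.

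The tissue difference was also compared between lines. The leaf to root difference of B73, id1, id4 or 9d9a was set against that of the other 3 lines with an interaction term, and no end passed for any line. No block passed elsewhere either, a background of 0.0% in both directions. At an unadjusted p under 0.05 there was 1 end for id4 and 0 for the other lines, and the smallest adjusted p at any end was 0.996 (edgeR). DESeq2 called 0 ends for each line. Without the 9d9a root library 1 end passed for id4, toward root. Each test set 1 line, with 1 leaf and 1 root library, against 3 lines that themselves differed in the windows low in B73 and id1 root. At 10L the differences were 0.31 ± 0.33 (SE) for B73, 0.38 ± 0.29 for id1, -0.29 ± 0.35 for id4 and -0.33 ± 0.26 for 9d9a on the log2 scale. These tests therefore do not address that split of the root libraries, and they do not show that the lines were alike.

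The lines id1, id4 and 9d9a were each compared with B73 in leaf and root together, with tissue as a covariate. The 3 comparisons share the B73 libraries. Most ends lay close to B73. The median log2 ratio of CPM + 1 to B73 over the 50 windows was within 0.1 of 0 at 18 ends in id1 leaf and 19 in id1 root, at 19 and 18 in id4, and at 20 and 18 in 9d9a. In 714 leaf it was so at 15 ends and in 714H leaf at 18. The same count over the interior blocks is not given here, so closeness to B73 is not shown to be particular to the ends. The lowest medians were those of 2L in id1, of 5S in id4, and of 3L in 714 and 714H.

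In id1 the long-arm end of chromosome 2 was lower than in B73. Of its 50 windows, 43 lay below B73 in leaf and 43 in root, and 22 in each tissue by more than 1 on the log2 scale. The median log2 ratio was -0.78 in leaf and -0.78 in root, and the median window held 19.7 CPM in id1 leaf and 18.7 in id1 root against 38.02 and 32.1 in B73. The sum of the end was 2492 CPM in id1 leaf against 3089 in B73, and 2382 against 3013 in root, while id4, 9d9a, 714 and 714H held 2914 to 3197 CPM. As a block, 2L was the only end called in id1 by edgeR (log2 -0.34 ± 0.03 SE, adjusted p = 0.000163 in edgeR), against a background of 5.26% of blocks lower and 4.31% higher. DESeq2 called 2 ends higher in id1 beside it, where edgeR called 0, and 3 ends had an unadjusted p under 0.05 in edgeR. The backgrounds here and below are those of edgeR at an adjusted p under 0.05. None is given for DESeq2 or for an unadjusted p, so those counts of ends have no background beside them. The lower level went on inward, where the next 5 Mb held 0.502 of the B73 level in leaf and 0.509 in root.

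Within this lowered end 1 window rose far more than the others. From 233.8 to 233.9 Mb id1 leaf held 712 CPM and id1 root 744, where B73 held 6.52 and 5.51 (log2 6.92 ± 0.21, adjusted p = 6.02e-09 in edgeR). The windows beside it rose less. Inward the log2 ratio of CPM + 1 was 2.17 in leaf and 1.46 in root, a window not called. Outward the ratio was 0.493 and 0.283, and that window was called higher. Without the window from 233.8 Mb the other 49 windows of 2L summed to 0.577 of B73 in leaf and 0.545 in root. With it the sums were 0.807 and 0.791 of B73. The windows that fell most started at 234.7, 235.7 and 236.5 Mb. At 234.7 to 234.8 Mb id1 leaf held 2.995 CPM and id1 root 2.40, where B73 had 130 and 95.1 (-5.37 ± 0.14, adjusted p = 1.48e-12 in edgeR). At 235.7 Mb id1 had only 4 leaf reads and 7 root reads, where B73 had 409 and 279 (-5.42 ± 0.24), and at 236.5 Mb it had 6 and 2 against 109 and 110 (-4.26 ± 0.38). With so few reads the size of these changes is uncertain.

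**Figure D5:**
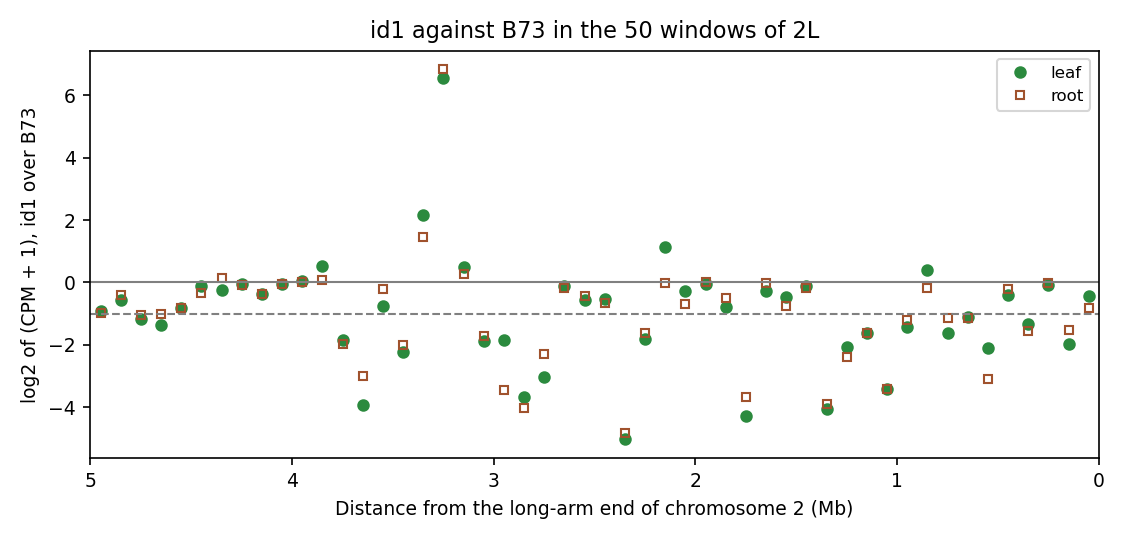
log2 ratio of id1 to B73 (CPM + 1) in each of the 50 windows of the long-arm end of chromosome 2 by distance from the end, in leaf (filled circles) and root (open squares), from 1 library per line and tissue. Most windows lie below 0 in both tissues, many below the dashed line at -1, and 1 window rises above 6.

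Over all ends, 21 of 992 windows were higher in id1 and 39 lower (edgeR, adjusted p under 0.05), which is 2.12% and 3.93% against a background of 1.94% and 3.58%. Of those lower, 29 were at 2L, 5 at 10L, 3 at 9L and 1 each at 3L and 7S. At the 19 ends other than 2L, 10 of 942 windows were lower, 1.06%. The 5 at 10L lay between 145.2 and 148.7 Mb, with a median log2 of -1.87, and the 3 at 9L between 152.6 and 153.7 Mb, with a median of -1.72. The windows called higher in id1 also lay outside 2L. The last window of chromosome 7, from 176.7 Mb, held 1.31 CPM in B73 leaf and 1.23 in B73 root. In id1 it held 47.3 in leaf and 12.5 in root (4.54 ± 0.45, adjusted p = 0.000804 in edgeR). At 299.8 Mb of chromosome 1 id1 held 62.8 and 60.4 CPM against 17.4 and 15.4 (1.91 ± 0.11). The number higher in id1 was 11 without the id1 leaf library and 11 without the id1 root library.

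In id4 the windows called lower than in B73 lay mostly at the short-arm end of chromosome 5, 11 of 14 in all. The sum of this end was 4548 CPM in id4 leaf and 4719 in id4 root, against 5000 and 5129 in B73 and 5047 to 5212 in the remaining 6 libraries. As a block the difference did not pass (log2 -0.12 ± 0.04 SE, adjusted p = 0.136 in edgeR), nor did any other end in id4, where the smallest adjusted p was 0.0726 and 4 ends had an unadjusted p under 0.05. DESeq2 called 3 ends higher and 1 lower. The block background in edgeR was 6.46% lower and 4.07% higher. Without the most read window of each end 5S passed (-0.17, adjusted p = 0.00699) and 3L was higher (0.10, adjusted p = 0.0197).

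By window, 14 of 992 were higher in id4 and 14 lower, 1.41% each against a background of 1.42% higher and 3.09% lower. The 11 lower windows of 5S lay from 0.8 to 4.2 Mb with log2 changes from -0.79 to -0.35, and at the other 19 ends 3 of 942 windows were lower. The farthest was at 2.9 Mb of chromosome 5, where id4 leaf held 31.3 CPM and id4 root 15.1, and B73 held 55.8 and 24.8 (-0.79 ± 0.12, adjusted p = 0.000305 in edgeR). At 3.3 Mb id4 held 150 and 122 CPM against 222 and 197 (-0.64 ± 0.09), and at 1.3 Mb 38.9 and 41.4 against 59.4 and 60.8 (-0.59 ± 0.11), a call lost without the id4 leaf library (adjusted p = 0.0824 in edgeR). The number lower in id4 was 6 without the id4 leaf library, 4 without id4 root, 4 without B73 root, 8 without id1 leaf and 9 without id1 root. The number higher was 9 without id4 leaf and 7 without B73 root.

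Windows that rose in id4 included 2.9 Mb of chromosome 10, where id4 leaf held 42.0 CPM and id4 root 61.9, against 15.3 to 20.4 CPM in all other libraries (log2 1.72 ± 0.14 SE, adjusted p = 6.51e-07 in edgeR). At 0.5 Mb of chromosome 3 id4 held 220 and 174 CPM, against 102 and 82.1 in B73 and 83.8 to 118 CPM in the remaining libraries (1.09 ± 0.09, adjusted p = 6.53e-07 in edgeR). A window of 3L separated the lines in another way. At 228.1 to 228.2 Mb of chromosome 3 B73 leaf and root held 78.1 and 86.7 CPM and id1 80.1 and 87.5, while id4 held 248 and 251, 9d9a 311 and 331, 714 leaf 337 and 714H leaf 379. It was higher than B73 in id4 (1.59 ± 0.09, adjusted p = 1.3e-08 in edgeR) and in 9d9a (2.01 ± 0.09, adjusted p = 5e-10 in edgeR), with leaf and root of a line close together in each case.

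In 9d9a few end windows differed from B73. Of 992 windows 12 were higher and 5 lower, 1.21% and 0.504%, against a background of 1.54% and 3.08%. Of those higher, 5 were at 3L between 228.1 and 229.9 Mb, with log2 changes from 0.47 to 2.01, and of those lower 3 were neighbours at 2S, from 4.3 to 4.6 Mb. At 4.5 Mb of chromosome 2 9d9a leaf held 145.9 CPM and 9d9a root 100.4, where B73 had 213 and 254 (-0.88 ± 0.16, adjusted p = 0.0160 in edgeR), and at 4.3 Mb 114 and 143 against 144 and 223 (-0.45 ± 0.09). At 2.9 Mb of chromosome 5 it held 40.5 and 18.1 CPM against 55.8 and 24.8 (-0.42 ± 0.11). At 2.2 Mb of chromosome 1 it held 163 and 111 CPM against 40.7 and 60.8 (1.48 ± 0.25, adjusted p = 0.0379 in edgeR), and at 3.7 Mb of chromosome 8 25.3 and 22.1 against 15.7 and 11.8 (0.83 ± 0.13). Of these 5 named windows, all but that of chromosome 8 lost their call without at least 1 library, at adjusted p between 0.0523 and 0.24 (edgeR). The call on chromosome 1 was also lost with library totals in place of TMM (adjusted p = 0.0643), and that on chromosome 5 with DESeq2 (adjusted p = 0.23). No end passed as a block, with 2 ends at an unadjusted p under 0.05 and a smallest adjusted p of 0.124, while 6.46% of blocks were lower and 5.02% higher. DESeq2 called 2 ends higher. Without the most read windows 3L was higher in 9d9a (0.19, adjusted p = 0.000965 in edgeR).

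The counts in 9d9a also rested on single libraries. The number lower was 1 without B73 root or without 9d9a root, 2 without id1 leaf, 3 without id4 leaf or id1 root, 8 without 9d9a leaf and 9 without B73 leaf. The number higher was 7 without B73 root and 6 without 9d9a root.

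The dose of the 714 allele was examined in leaf by fitting a slope per copy to the 6 libraries (714 has 2 copies, 714H has 1 and the rest have 0). Only 714 and 714H carry the allele, and other differences between these stocks and the rest cannot be told apart from its dose. At the ends 2 of 992 windows rose and 2 fell, 0.202% each, against a background of 0.639% rising and 1.71% falling. On chromosome 4 the window from 240.1 Mb had 75.0 to 86.5 CPM in the 4 libraries without the allele, 117 in 714H and 129 in 714 (slope in log2 0.36 ± 0.06 SE, adjusted p = 0.0305 in edgeR). On chromosome 1 the window from 0.8 Mb had 7.20 to 7.89, 11.1 and 12.6 CPM in the same order (0.39 ± 0.08, adjusted p = 0.0493). On chromosome 10 the window from 146.7 Mb had 50.6 to 68.6 CPM without the allele, 47.5 in 714H and 35.9 in 714 (-0.40 ± 0.08, adjusted p = 0.0468). On chromosome 9 the window from 151.8 Mb had 51.0 to 58.9 CPM, then 43.6 and 36.7 (-0.29 ± 0.06, adjusted p = 0.0470). Each of these calls was lost when B73 or id4 was left out, with adjusted p from 0.0707 to 0.146 (edgeR), and other libraries mattered too. The number rising was 0 without B73, id4 or 9d9a. The number falling was 0 without B73, id1 or id4, 1 without 9d9a, 17 without 714 and 10 without 714H.

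As blocks no end was called per copy in edgeR (smallest adjusted p 0.0734, 3 ends at an unadjusted p under 0.05). DESeq2 called 2 ends rising and 2 falling. The background in edgeR was 0.0% of blocks rising and 2.87% falling. Without 714, and likewise without 714H, 1 end fell. As single libraries with counting error only, the ratio of the end sums to B73 leaf ran from 0.847 at 3L to 1.23 at 10S in 714 and from 0.817 at 3L to 1.12 at 7S in 714H. The exact 95% counting interval lay above 1 at 11 ends and below at 5 in 714. It lay above at 13 and below at 3 in 714H. The same count over the other blocks is not given here. These numbers therefore cannot be set against the rest of the genome. At 10S the sum was 3879 CPM in 714, 3490 in 714H and 3154 in B73. Its window from 3.1 Mb, with 1543, 1175 and 821 CPM in the same order, accounted for most of this difference, and the slope per copy was 0.13 ± 0.03 with that window (adjusted p = 0.0734 in edgeR) and -0.02 ± 0.01 without the most read window of each end (adjusted p = 0.345 in edgeR).

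3L was the low end of both 714 stocks. Its sum was 4765 CPM in 714 and 4597 in 714H, against 5511 to 6018 CPM in the other 4 leaf libraries. Of its 50 windows, 12 in 714 and 20 in 714H lay more than 0.5 below B73 on the log2 scale, while id1, id4 and 9d9a had 2, 1 and 1 such windows. The median window held 41.9 CPM in 714 and 36.3 in 714H against 50.04 in B73. As a slope per copy the end was at -0.18 ± 0.05 (SE, adjusted p = 0.103 in edgeR), and 714H, with 1 copy, was lower than 714.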

How the data were processed

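Small RNA reads were counted by the authors in 100 kb windows. The submitters' processing notes name Bowtie. The sources used here give neither its settings nor the build, the read sizes or the handling of reads that match several places, which can change repeat-rich windows. The deposited values are whole-number counts per window, per the file headers, with no normalisation that the files show; unlisted windows were taken as 0. CPM use each file's total. Members, lists and tests were chosen with earlier results of these data known.

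Counts of all windows, or of 418 blocks, were fitted with edgeR 4.0.16, run under R 4.3.3 (TMM, filterByExpr, quasi-likelihood with robust estimates, Benjamini-Hochberg over all features, threshold 0.05). SE came from the F statistic. Intervals cover counting error only. DESeq2 1.42.0 was an alternative. The scripts were tested on simulated data with independent libraries and a fixed spread. This checks the code and not the error rates in these data. Leaf and root of a line share its genotype, and their deviations from the tissue means correlated at 0.643, 0.795, 0.56 and 0.666 in B73, id1, id4 and 9d9a over 20254 windows. No 2 libraries agreed within sampling noise (lowest chi-square over degrees of freedom 5.42).

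Windows named were the 5 with the largest change in each direction for tissue and up to 3 for each line and the slope, among those called with the same direction in every line or tissue, the 5 most read windows, the outermost windows, and others on which an end's result rests. No sequence is printed, since no genome of the files' build was used here.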

Additional observations from a re-analysis of the deposited data

Results flagged for a closer look

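The summed level of each end was examined for libraries standing apart within a tissue, in 42 groups that included the sums of all ends and arms, where chance marks about 1 in 20 groups. There were 3 such values, all from the id1 leaf and id4 leaf libraries. The id1 leaf library held 2492 CPM at 2L, next to 3051 CPM in the nearest of the other 5 leaf libraries. The id4 leaf library held 4548 CPM at 5S, next to 5000 CPM, with 38 of 50 windows below the median of the other leaf libraries. The id1 leaf library held 4719 CPM at 9L, next to 5058 CPM, and 28 of 50 windows were below that median. At 9L the windows at 153.5 and 153.6 Mb held 37.2 and 42.6 CPM in id1 leaf, where the median of the other leaf libraries was 253 and 117 CPM.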

How the results depend on the processing

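Of the named windows and ends called, none turned direction with library totals, RLE size factors, DESeq2, no filter or a library or line left out, and most that lost their call are given beside their values. Of 32 calls on named windows, 3 were lost with library totals, 1 with no filter and 1 with DESeq2. With line as a replicate block, 180 instead of 114 end windows were higher in leaf and 246 instead of 183 in root, and 2L was called higher in leaf. The 10 named windows and the 3 ends were called with the block too. DESeq2 gave 13 windows higher in id1, 8 lower in id4 and 2 lower in 9d9a, and 8 rising and 16 falling per copy of the 714 allele. It called 2 ends higher in id1, 3 higher and 1 lower in id4, 2 higher in 9d9a and 2 rising and 2 falling per copy. Backgrounds are given here only for the main edgeR fits, and not for these alternatives. With library totals 0 windows fell and 1 end rose per copy, and with no filter 1 window rose.

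With one library or line left out, end windows higher in leaf numbered 55 to 104 (76 without id4) and higher in root 126 to 184. Those higher numbered 11 to 22 in id1, 7 to 16 in id4 and 6 to 13 in 9d9a, those lower 34 to 42, 4 to 15 and 1 to 9, and per copy 0 to 3 rose and 0 to 17 fell. Of the ends, 2 to 3 were higher in leaf, 0 to 1 fell per copy, and 0 to 1 had a leaf to root difference in id4.

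With ends of 2 Mb, 3 ends were higher in root, 1 higher in id4 and 1 in 9d9a. The log2 of leaf over root turned to 0.07 at 6L, -0.18 at 8S and -0.13 at 10S, and that of 9d9a over B73 to 0.17 at 2S, while 9S lost its call. With ends of 10 Mb, 1 was higher in leaf, 2 in root, 1 lower in id4 and 1 lower in 9d9a, and 7S and 10S lost their calls. Without the most read window of each end, an alternative chosen after seeing the data, 0 were higher in leaf and 2 in root, with -0.09 at 8S and -0.09 at 10S, 1 was higher in id1, 1 higher and 1 lower in id4, and 1 higher in 9d9a. The cause of these changes was not tested.

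The share of reads at the ends was 2.68% in leaf and 2.60% in root for 2 Mb, 17.0% and 16.9% for 10 Mb, and 7.75% and 7.74% without the most read 1% of windows. The level over other windows was 1.39 and 1.35 for 2 Mb, 1.69 and 1.68 without those windows, and 2.12 and 2.16 by the median. Long over short in leaf was 1.48 for 2 Mb, 1.39 for 10 Mb, 1.195 without those windows and 1.15 by the median, and in root 1.195 and 1.16 for the last pair. The mean number of chromosomes with the long arm higher was 6.33 in leaf and 7.75 in root for 2 Mb, 7.83 and 7.25 for 10 Mb, 6.17 and 6.25 without those windows, and 6 and 6 by the median. Depth limits windows with few reads, such as the last window of 9L with at most 3 reads per library, where no difference could be seen.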
